A study of Homo sapiens with 7 samples.

Results

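The mitochondrial ribosomal protein genes are the nuclear genes whose symbol in the RNA-seq table starts with MRPL or MRPS followed by a number and, at most, a letter from A to C. This naming rule gave 77 genes of the 26175 in the table, 48 with an MRPL and 29 with an MRPS symbol, spread over 21 chromosomes. Chromosomes 1 and 2 held 8 each, and chromosomes 11 and 17 held 7 each. The rule itself uses names and no measured value. The cells were T-47D, a human luminal breast cancer line, in the form that the study names T47D/A1-2, which was engineered with extra glucocorticoid receptor of the rat and with a luciferase gene under the MMTV promoter in its genome. They were grown in 10% FBS and then kept for at least 24 hours in 5% charcoal-stripped serum, and no other growth condition, genotype or treatment was compared. Start-seq, which sequences short capped nuclear RNA and so places transcription start sites (TSSs) at single nucleotides, supplied the TSS calls of replicate 1, and RNA-seq supplied 1 FPKM value per gene (fragments mapped to a gene, scaled by its transcript length and by library size), merged over 3 replicates. Calls carry no read counts and FPKM carries no replicate values, so depth is unknown, no difference below could be set against the spread between replicates, and no test was run.

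Luminal breast genes were high in the merged RNA-seq, with FPKM values of 1142 for KRT8, 555 for KRT18, 360 for GATA3, 113 for FOXA1 and 44.1 for ESR1. The mesenchymal gene VIM was at 0.864 and the leukocyte gene PTPRC at 0.0208.

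Mitochondria carry their own ribosome, which translates the few mRNAs of the mitochondrial genome, nearly all of them for membrane subunits of the respiratory chain and ATP synthase. Its rRNAs are made inside the organelle, whereas every one of its proteins is encoded in the nucleus, made in the cytosol and imported. Some of these proteins descend from bacterial ribosomal proteins and others were added in mitochondria. The nuclear factors GABPA (an ETS family protein, also called NRF-2), NRF1 and YY1 are known regulators of nuclear genes for mitochondrial proteins.

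By subunit, 50 of the 77 genes encode proteins of the large subunit and 26 proteins of the small subunit. MRPS18A and MRPS30 were counted with the large subunit despite their names, because their proteins sit there. MRPS36 was counted apart, since its product is now known as a component of the alpha-ketoglutarate dehydrogenase complex.

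The promoters of the 3 members with the highest FPKM are shown first, to set the letters of a promoter beside the levels that follow. Each runs from 60 nt upstream of the called gene TSS to 10 nt from the TSS on, read 5′ to 3′ on the strand of the gene in GRCh37 (hg19). Capitals mark matches, on either strand, to the letters searched, which were GGGCGG for a GC box (SP family) and CCGGAAG for the core of an ETS site. MRPL51 is on the minus strand at chr12:6602417-6602486, MRPL28 on the minus strand at chr16:420518-420587 and MRPL49 on the plus strand at chr11:64889735-64889804.
MRPL51: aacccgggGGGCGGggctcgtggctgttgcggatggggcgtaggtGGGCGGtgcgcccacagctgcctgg
MRPL28: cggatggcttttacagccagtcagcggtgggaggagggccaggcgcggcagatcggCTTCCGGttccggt
MRPL49: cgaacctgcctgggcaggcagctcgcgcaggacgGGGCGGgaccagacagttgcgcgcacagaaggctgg
MRPL51 and MRPL49 held GC boxes in this stretch, while MRPL28 held an ETS core that runs across its TSS, on the strand opposite to the gene. MRPL51 also held 2 ETS cores further upstream, with first bases at positions -121 and -106 counted from the TSS.

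All members were expressed. Their FPKM ranged 18.7-fold, from 11.1 to 209, with a median of 67.9 and quartiles of 39.2 and 92.5. Over all genes of the table the median was 0.527, and all 77 members lay above it. A fairer reference is the set of 9778 table genes with a called gene TSS, whose median was 16.6 with quartiles of 6.30 and 40.8. Of the members, 56 were among the top 10% of all genes, which began at an FPKM of 42.4, and 18 had an FPKM of at least 100.

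**Figure D1:**
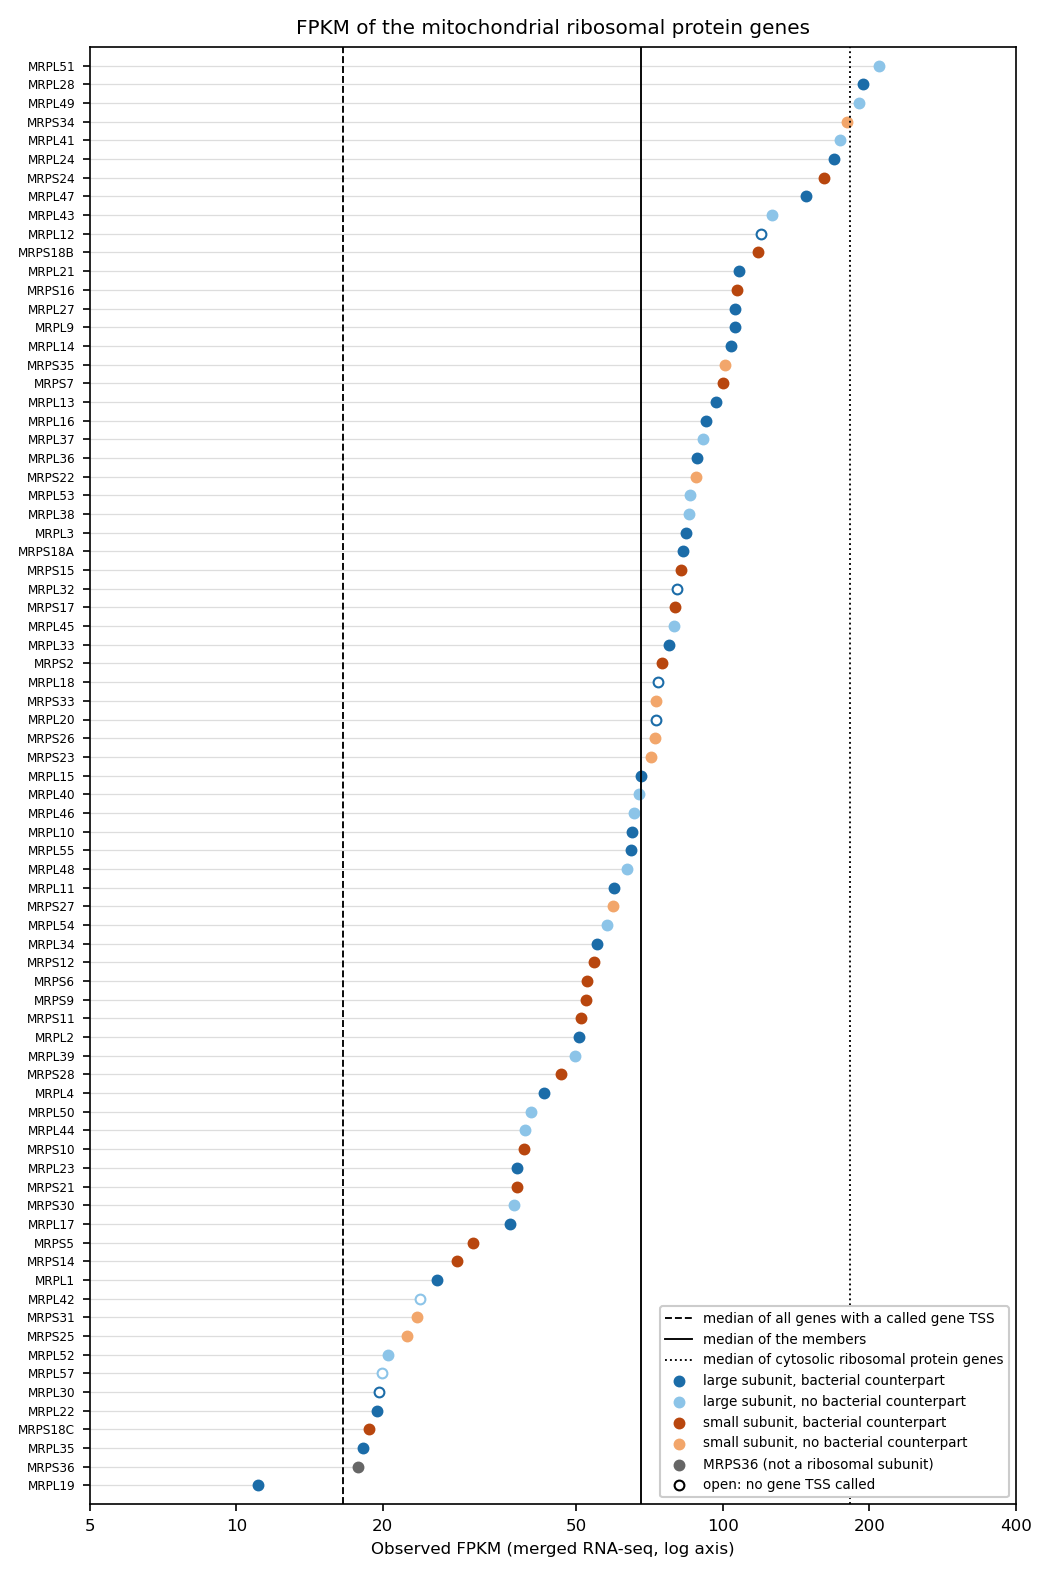
Observed FPKM (log axis, 1 merged value per gene) of the 77 members, ordered by value and coloured by subunit and by whether the protein has a bacterial counterpart; open circles mark the 7 members with no called gene TSS, and vertical lines mark 3 medians. Members lie between 11.1 and 209, and both subunits and both kinds of protein are spread over most of that range. Small subunit members lie between 18.7 and 180.

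The highest member was MRPL51 at an FPKM of 209, a large subunit protein with no bacterial counterpart. It was followed by MRPL28 at 194 and MRPL49 at 190, then by MRPS34 at 180, MRPL41 at 174 and MRPL24 at 169. MRPS24 was at 161, MRPL47 at 148, MRPL43 at 126 and MRPL12 at 120. These 10 came from both subunits, and 5 of them, among them MRPL12, the homologue of the stalk protein that binds translation factors in bacteria, have bacterial counterparts. Without replicate values it cannot be said which neighbours in this order differ.

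At the other end, MRPL19 stood lowest at an FPKM of 11.1, below the 16.6 median of genes with a called gene TSS, and it was the only member below it. MRPS36, the dehydrogenase component, was next at 17.8. MRPL35 was at 18.2, MRPS18C at 18.7, MRPL22 at 19.5, MRPL30 at 19.6 and MRPL57 at 19.9. MRPL52 at 20.5, MRPS25 at 22.4 and MRPS31 at 23.5 complete the lowest 10. MRPL19 and MRPL51, the lowest and the highest, both encode large subunit proteins, so the whole range was spanned within 1 subunit. Reads of several members may be shared with near-identical pseudogenes, of which the table lists MRPL45P2 at 3.32, MRPS31P5 at 2.29 and MRPL42P5 at 0.110.

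The paralogs MRPS18A, MRPS18B and MRPS18C, which all descend from the bacterial small subunit protein S18, had FPKM values of 82.7, 118 and 18.7. MRPS18A is the copy found in the large subunit. The table places MRPS18B on an alternative haplotype contig of chromosome 6, and whether its value counts all reads of the gene is not known.

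Medians differed little between the classes of protein. The median FPKM was 70.3 for the 50 large subunit genes (quartiles 40.9 and 95.8) and 65.2 for the 26 small subunit genes (quartiles 41.0 and 86.4). Within the large subunit, the 31 genes with bacterial counterparts had a median of 73.5 and the 19 without had 65.7. In the small subunit the order was the other way round, with 52.5 for the 17 genes with counterparts and 72.5 for the 9 without. Quartile ranges overlapped in every case.

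Cytosolic ribosomal protein genes, 84 in the table, were higher and far more spread, with a median FPKM of 182, quartiles of 41.6 and 402 and a highest value of 1135. Of them, 38 exceeded the highest mitochondrial member, and the lowest was listed at 0. This set was also chosen by symbol alone, whether or not a gene is expressed in these cells. Reads shared with pseudogenes were not examined for it. Mitochondrial ribosomal proteins that carry other symbols had levels like those of the members, with a median of 86.6 over 6 genes. They ranged from DAP3 at 133 and CHCHD1 at 104 to AURKAIP1 at 69.4 and PTCD3, an RNA-binding PPR protein, at 10.6.

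Factors that work with the mitochondrial ribosome were mostly lower than its proteins. Of 10 translation factors, the median was 27.5, from the elongation factors TUFM at 231 and TSFM at 70.3 down to the release factors MTRF1 at 4.45 and MTRF1L at 2.23. Of 19 genes for ribosome assembly and rRNA modification, the median was 14.4, with C1QBP at 140 and ERAL1, a chaperone of the small subunit rRNA, at 77.9 at the top and GTPBP10 at 3.57 and RBFA at 2.57 at the bottom. Of 10 genes for mitochondrial transcription and mRNA handling, the median was 19.3. SLIRP at 241 and its partner LRPPRC at 56.6, which stabilize mitochondrial mRNAs, stood highest, and the RNA polymerase POLRMT at 6.27 and the poly(A) polymerase MTPAP at 1.98 lowest.

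A gene TSS was called on the same strand within 1000 nt of an annotated transcript start for 70 of the 77 members (90.9%). Among the 18937 protein-coding genes of the table found in the annotation, 51.6% had a call, and among those with an FPKM of at least 1, as all members had, 80.6%. MRPS12, the homologue of the decoding-center protein S12, had 2 calls and every other called member had 1, which gave 71 gene TSSs. Of these, 63 lay within 50 nt of the nearest annotated start and 18 were exactly on it, at a median distance of 5 nt. The median distance over all gene TSSs was 10 nt.

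The calls far from an annotated start need care in reading. MRPL21 was called 665 nt upstream of its nearest start, MRPS18C 444 nt upstream and the first of the MRPS12 calls 380 nt upstream. MRPL48 was called 339 nt downstream, MRPL24 197 nt downstream and MRPL53 115 nt downstream. The upstream MRPS12 call lies 182 nt inside SARS2, the gene on the other strand, as measured from the called SARS2 start.

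The 7 members with no gene TSS were MRPL12 at an FPKM of 120, MRPL32 at 80.6, MRPL18 at 73.5, MRPL20 at 72.8, MRPL42 at 23.8, MRPL57 at 19.9 and MRPL30 at 19.6. All 7 are large subunit genes, and their FPKM covered most of the range of the others. For MRPL12 a gene TSS on its strand lay 103 nt downstream of its annotated start but was nearest to a read-through gene model that starts beside it. With gene models without a symbol left out, this call went to MRPL12, which made 71 of 77 members called (92.2%). At MRPL18, MRPL30, MRPL32 and MRPL57 the only gene TSS near was on the other strand, 205, 165, 176 and 111 nt upstream, and belonged to TCP1, MITD1, a read-through gene model and SKA3. For MRPL20 and MRPL42 the nearest gene TSS on either strand was 28423 and 25685 nt away.

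Antisense calls at the members were as common as at gene TSSs in general. An upstream antisense TSS (uaTSS, on the other strand 1 to 1000 nt upstream) was called at 37 of the 71 member gene TSSs (52.1%), against 53.1% of all 10391 gene TSSs. A downstream antisense TSS (daTSS, on the other strand 1 to 2000 nt downstream) was called at 19 (26.8%), against 28.4%. Both were present at 12 (16.9%, against 17.5%), and neither at 27 (38.0%, against 35.9%). Shares in the large and small subunits were alike, 51.2% and 55.6% for uaTSSs and 27.9% and 25.9% for daTSSs. Of gene TSSs in the members' FPKM range, 57.3% had a uaTSS and 29.7% a daTSS. At cytosolic ribosomal protein genes the shares were 71.4% and 28.6%, and 22.1% had neither.

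The uaTSSs of members lay 54 to 512 nt upstream, with a median of 152 nt and quartiles of 95 and 211 nt, against a median of 200 nt over all uaTSSs and 150 nt over those of cytosolic ribosomal protein genes. MRPL46 at 54 nt, MRPS5 at 60 nt and MRPS28 at 67 nt were closest, and MRPS23 at 512 nt was farthest. The daTSSs lay 149 to 1047 nt downstream, with a median of 518 nt, near the 507 nt of all daTSSs. Of the 19, 9 were in an intron, 9 in an exon and 1 beyond the end of the gene, against 60.2%, 35.8% and 3.98% of all daTSSs.

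The 12 gene TSSs with both a uaTSS and a daTSS were those of MRPL11, MRPL19, MRPL36, MRPL40, MRPL41, MRPL53, MRPS6, MRPS14, MRPS15, MRPS18B, MRPS25 and MRPS26. A daTSS without a uaTSS was called at MRPL4, MRPL16, MRPL23, MRPL24, MRPL34, MRPS21 and MRPS30. The closest daTSS was that of MRPL24, 149 nt downstream in an intron, though that gene TSS was itself called 197 nt past the annotated start. MRPS6 had the farthest, 1047 nt downstream in an intron, and that of MRPL53, 820 nt downstream, lay outside its short gene. Members with a daTSS included the lowest of all, MRPL19, and one of the highest, MRPL41. Their median FPKM was 59.6 (quartiles 37.8 and 87.1), and that of member gene TSSs without a daTSS was 69.4 (quartiles 48.8 and 100). The latter include the 15 with a divergent partner gene, described below, whose median was 75.1. Over all gene TSSs the order was the other way round, at 18.3 with a daTSS and 16.4 without. With and without a uaTSS the members' medians were 67.9 and 62.3, against 19.6 and 13.9 over all gene TSSs.

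**Figure D2:**
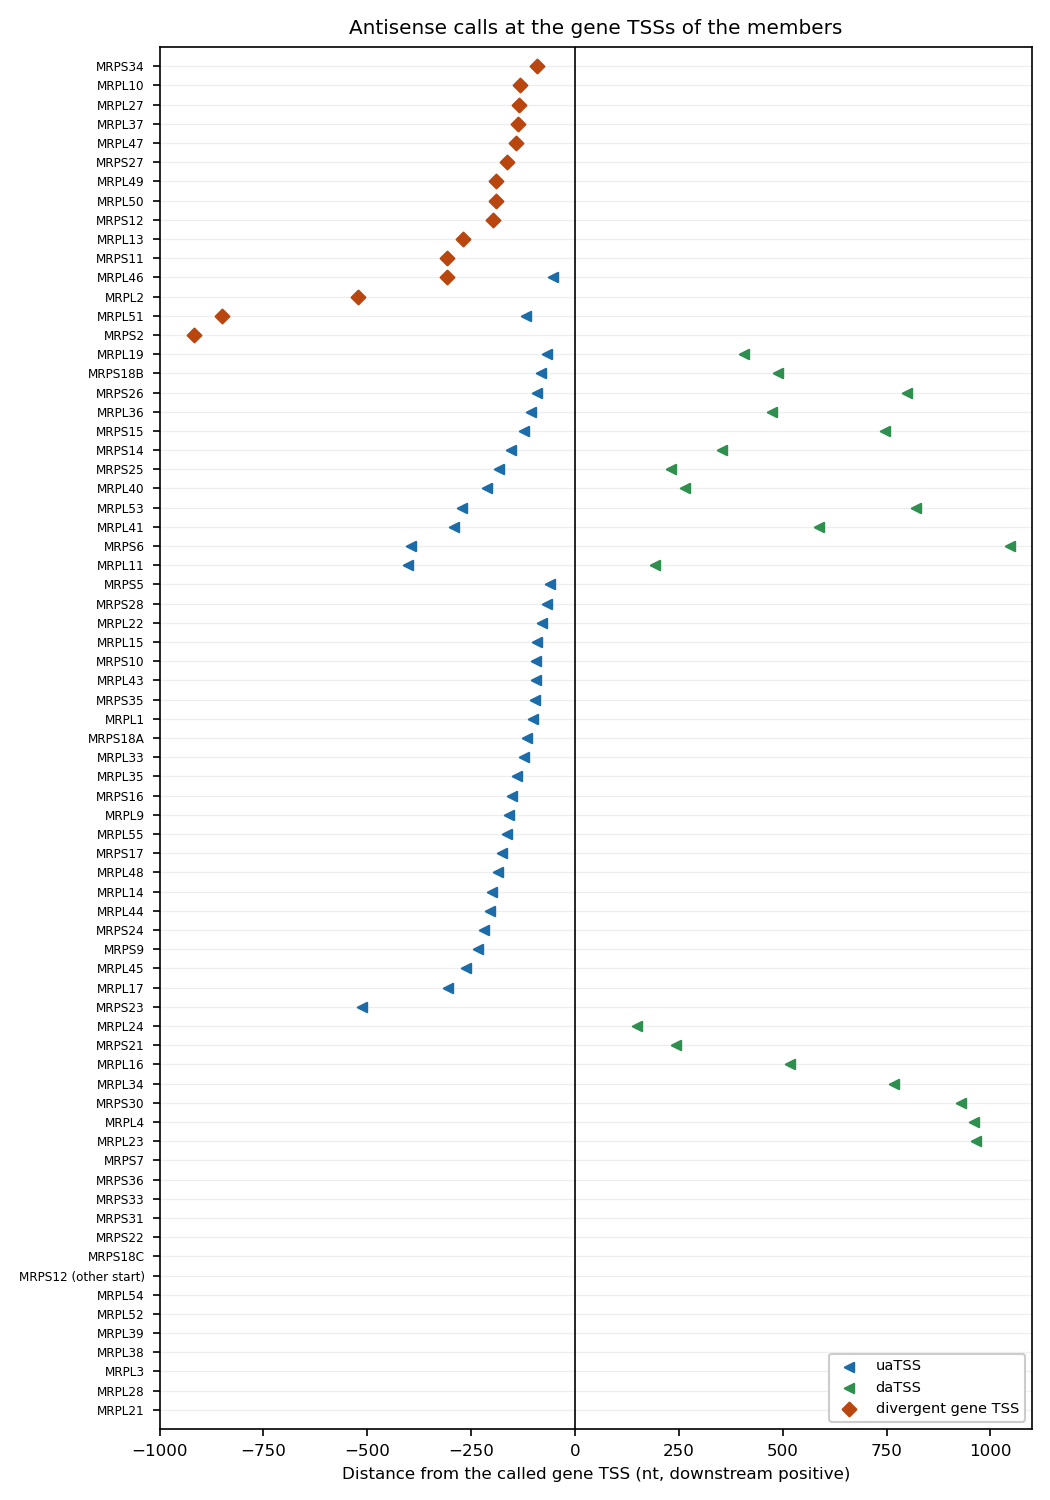
Distance (nt, downstream positive) of each uaTSS, daTSS and divergent gene TSS from the 71 called gene TSSs of the members, 1 line per gene TSS, grouped by the kinds of call. Divergent gene TSSs are listed at the top, where no gene TSS has a daTSS and those of MRPL46 and MRPL51 have a uaTSS.

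Some members share their promoter region with another protein-coding gene that is transcribed the other way. A divergent gene TSS, meaning the called gene TSS of another gene on the other strand 1 to 1000 nt upstream, was present at 15 of the 71 member gene TSSs (21.1%). The share was 11.5% over all gene TSSs and 12.6% over the 6032 gene TSSs whose FPKM lay in the members' range. The distance had a median of 191 nt, and 9 of the 15 were under 200 nt, while the median over all divergent gene TSSs was 267 nt. The 15 gene TSSs make 14 promoter regions, since MRPL46 and MRPS11, a large and a small subunit gene, are each other's partner at 308 nt on chromosome 15.

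Of the closest pairs, 2 are printed to show what lies between the starts, each gene on its own strand from 60 nt upstream to 10 nt from its TSS on, with the capitals as above. Further capitals mark CCGCCAT, the reverse complement of the YY1 letters ATGGCGG, and ATTGG, that of the CCAAT box. MRPS34 and EME2 are at chr16:1823111-1823180 (minus) and chr16:1823151-1823220 (plus). MRPL27 and EME1 are at chr17:48450548-48450617 (minus) and chr17:48450632-48450701 (plus).
MRPS34: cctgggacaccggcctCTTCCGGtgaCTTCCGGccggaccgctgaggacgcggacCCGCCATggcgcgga
EME2: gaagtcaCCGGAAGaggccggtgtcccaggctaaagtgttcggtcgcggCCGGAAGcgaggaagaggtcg
MRPL27: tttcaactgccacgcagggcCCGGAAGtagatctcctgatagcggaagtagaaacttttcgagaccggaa
EME1: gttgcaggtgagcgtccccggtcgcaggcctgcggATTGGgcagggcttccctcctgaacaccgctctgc
The stretches of MRPS34 and EME2 overlap, so an ETS core between the 2 starts is printed once on each strand. Both members held an ETS core in the printed stretch.

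The partners' functions were mixed. MRPS34 faced EME2 at 91 nt and MRPL27 faced EME1 at 135 nt, 2 related partners of the DNA endonuclease MUS81. MRPL10 faced LRRC46 at 133 nt, MRPL37 faced CYB5RL at 137 nt and MRPL50 faced ZNF189 at 191 nt. Other partners also act in mitochondria or in translation. These were NDUFB5, a complex I subunit, 141 nt from MRPL47, PTCD2, a mitochondrial RNA-binding protein, 164 nt from MRPS27, and SARS2, the mitochondrial seryl-tRNA synthetase, 198 nt from MRPS12. FAU, which encodes a cytosolic ribosomal protein fused to a ubiquitin-like protein, was 189 nt from MRPL49. The remaining pairs were MRPL13 and MTBP at 270 nt, MRPL2 and KLC4 at 522 nt, MRPL51 and NCAPD2, a condensin subunit, at 849 nt, and MRPS2 and C9orf116 at 918 nt.

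Levels within a pair ranged from close to far apart. The member had the higher FPKM in 12 of the 15 pairings, where MRPL46 and MRPS11 count once each way, and the median was 75.1 for the members and 11.7 for the partners. Members as a whole were higher than genes with a called gene TSS, at medians of 67.9 and 16.6. The count of 12 can therefore not be read as a trait of the pairs. MRPS34 stood at 180 and EME2 at 7.01, MRPL37 at 91.0 and CYB5RL at 2.26, and MRPL27 at 106 and EME1 at 11.7. Closer were MRPS2 at 75.1 and C9orf116 at 49.3. The partners that were higher were NDUFB5, at 295 beside MRPL47 at 148, FAU, at 412 beside MRPL49 at 190, and MRPL46, at 65.7 beside MRPS11 at 51.0. Across the 15 pairings Spearman's rho was 0.24, and across all 577 divergent pairs with FPKM it was 0.18. Each point is a pair of genes in the same merged libraries, so these are descriptions across genes.

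**Figure D3:**
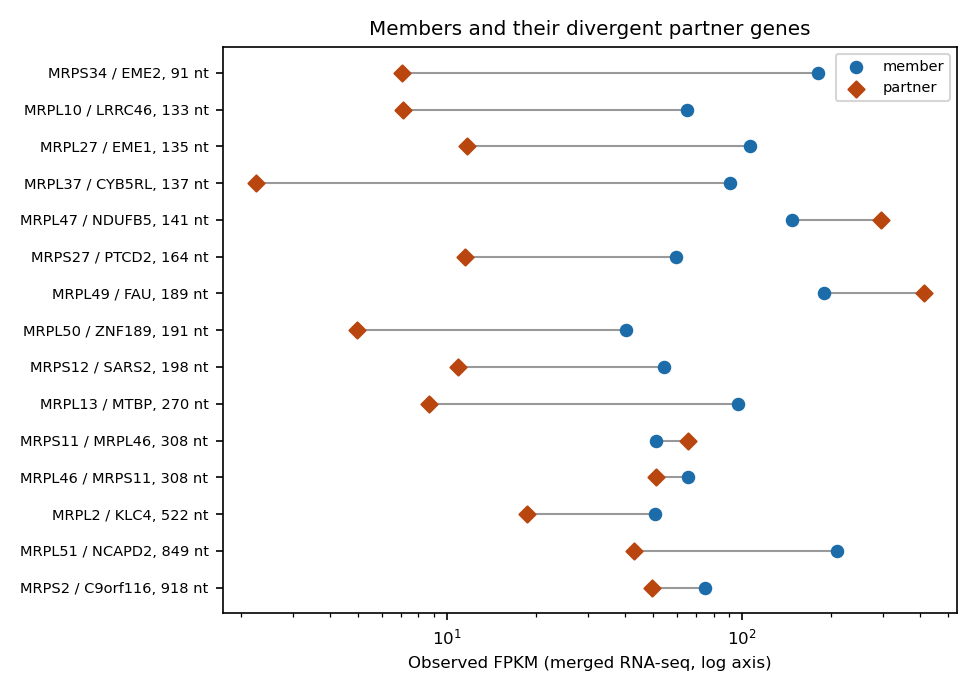
Observed FPKM (log axis) of the 15 members with a divergent gene TSS (circles) and of their partner genes (diamonds), ordered by the distance between the TSSs; MRPL46 and MRPS11 appear once each way. The member is higher in 12 pairings, and NDUFB5 (295) and FAU (412) are the highest partners. All members together are also higher than genes with a called gene TSS (medians 67.9 and 16.6).

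Where a divergent gene TSS was present, separate antisense calls were few. A uaTSS was called at 2 of the 15 (13.3%, against 16.2% of all gene TSSs with a divergent gene TSS), and at 35 of the 56 others (62.5%, against 57.9%). A daTSS was called at 0 of the 15 (all gene TSSs, 7.10%) and at 19 of the 56 (33.9%, against 31.2%). The calling procedure discarded any daTSS that had the annotated start of a gene on its own strand within 1000 nt, a rule that bears on promoters with a divergent gene, and its part in these counts was not tested. The uaTSS of MRPL46, at position 89010684, is exactly the annotated start of MRPS11, whose own call is at 89010938. That of MRPL51 is 10 nt from an annotated start of NCAPD2.

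Further members face a gene that the annotation places there but for which no divergent gene TSS was called. Annotated starts on the other strand lay 82 nt (OAZ3) upstream of the call of MRPL9, 118 nt (TMEM63B) of MRPL14, 93 nt (C10orf2) of MRPL43, 79 nt (IGHMBP2) of MRPL21, 104 nt (SLC7A7) of MRPL52 and 73 nt (GGA3) of MRPS7. At larger distances were PPP1R10, 596 nt from MRPS18B, and HIRA, 812 nt from MRPL40. C10orf2 encodes the mitochondrial DNA helicase Twinkle. Its gene TSS was called 115 nt downstream of that of MRPL43, so that the 2 transcripts overlap at their 5′ ends. The uaTSS of MRPL43 is 2 nt from an annotated start of C10orf2, and that of MRPL14 is 4 nt from one of TMEM63B. Of the 37 uaTSSs of members, 5 (13.5%) lay within 200 nt of an annotated start on their strand, against 8.64% of all uaTSSs. Counting called and annotated partners, 24 of the 71 member gene TSSs (33.8%), those of 23 members, faced another gene, against 18.9% of all gene TSSs, 20.3% of those in the members' FPKM range and 23.4% of those of cytosolic ribosomal protein genes. The 24 include the upstream MRPS12 call, 431 nt from an annotated start of SARS2, which is also the partner of the other MRPS12 call. Measured from the called SARS2 start, that upstream call lies inside SARS2.

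The sequence at the members' gene TSSs was less GC-rich than the median of all gene TSSs, as was that of some related gene sets. Over the 1000 nt centred on the TSS, GC content had a median of 57.3% (quartiles 54.1% and 61.6%), against 63.0% over all gene TSSs (quartiles 57.8% and 68.5%). The median was 57.7% for cytosolic ribosomal protein genes and 56.7% for genes of mitochondrial transcription and mRNA handling. The ratio of observed to expected CpG was alike, with medians of 0.767 and 0.782. MRPS6 at 79.4% and MRPL23 at 78.1% were the most GC-rich members, and MRPS10 at 47.6% was the least.

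Cytosolic ribosomal protein mRNAs are known to begin with C followed by a run of pyrimidines, the element through which their translation responds to growth signals. Mitochondrial members mostly lacked it. A pyrimidine start, meaning C at the TSS and pyrimidines at the 4 bases after it, was found at 4 of 71 member gene TSSs (5.63%), against 3.39% of all gene TSSs and 70.1% of the 77 gene TSSs of cytosolic ribosomal protein genes. The 4 are printed below beside 4 highly expressed cytosolic genes, from 4 nt upstream of the TSS on, with the TSS and the 4 bases after it in capitals. MRPL1 is at chr4:78783902-78783915 (plus), MRPL44 at chr2:224822163-224822176 (plus), MRPS25 at chr3:15106750-15106763 (minus) and MRPS36 at chr5:68513638-68513651 (plus). RPL37A is at chr2:217363563-217363576 (plus), RPS14 at chr5:149829289-149829302 (minus), RPL27 at chr17:41150462-41150475 (plus) and RPL11 at chr1:24018292-24018305 (plus).
MRPL1: aactCCTTCcctct
MRPL44: ccgtCTTCCatcgt
MRPS25: agtcCTTTCtcgtc
MRPS36: ctgcCCCTTctcgg
RPL37A: cttcCTTTCtgggc
RPS14: ctctCTTTCcggtg
RPL27: gctgGTAGGgccgg
RPL11: ctttCTCTTcctgc
The run of pyrimidines is plain in 3 of the 4 cytosolic genes, and the 4 members that share it were all below the members' median, at FPKM values of 25.9, 39.2, 22.4 and 17.8. Most other members started at a purine. The base at the TSS was A at 45.1% and G at 31.0%, against 44.1% and 37.5% of all gene TSSs, and C at 22.5%, against 13.8%.

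**Figure D4:**
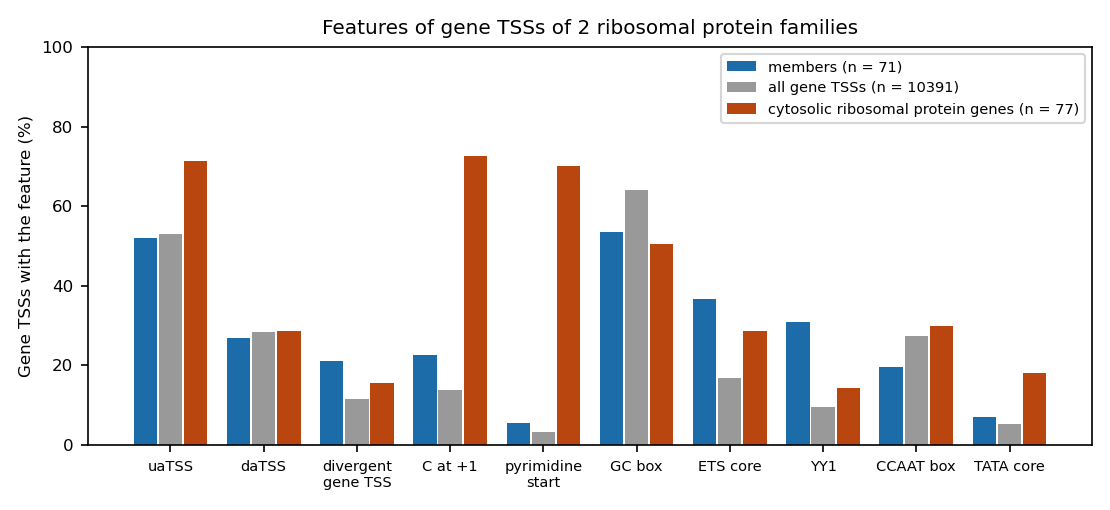
Share (%) of gene TSSs with each feature, for 71 gene TSSs of the members, all 10391 gene TSSs and 77 gene TSSs of cytosolic ribosomal protein genes; bars start at 0 and have no error, since calls come from 1 library. The members are near all gene TSSs for uaTSSs and daTSSs and for the pyrimidine start (5.63%), which 70.1% of the cytosolic set has.

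Letters of known motifs were searched on both strands from 150 nt upstream to 49 nt downstream of the TSS. ETS core letters, CCGGAAG, were present at 26 of 71 member gene TSSs (36.6%), against 16.8% of all gene TSSs, 18.8% of those in the members' FPKM range, 21.7% of those in their quartile range of GC content and 28.6% of the cytosolic set. The 26 member gene TSSs held 35 matches, 29 of them starting upstream of the TSS. First bases were at positions -121 to 44, with a median of -38. In the narrower stretch from 50 nt upstream to 20 nt downstream, 28.2% of members and 9.25% of all gene TSSs held a match. MRPS22 and MRPS34 each held 3 matches.

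YY1 letters, ATGGCGG, were present at 22 (31.0%), against 9.50% of all gene TSSs, 11.4% of those in the members' FPKM range, 8.63% of those in their quartile range of GC content and 14.3% of the cytosolic set. In the same small sets they were at 2 of 5 gene TSSs of ribosomal proteins under other symbols (40.0%). Transcription and mRNA handling had 2 of 9 (22.2%), ribosome assembly 2 of 16 (12.5%) and translation factors 0 of 10 (0%). Such counts are too small to rank these sets. The matches lay mostly downstream of the TSS, 16 of them at positions 1 to 39 with a median of 22, and 15 of these 16 read on the strand of the gene. Matched gene TSSs in general also held the letters mostly downstream and on the strand of the gene. A match lay downstream at 16 of 22 for the members (72.7%) and 57.0% for all. One on the strand of the gene was at 81.8% and 71.7%. At 15 gene TSSs (21.1%, against 4.08% of all), 13 of them with the codon downstream of the TSS, the first letters of the match were an annotated start codon. Annotated start codons in the searched stretch downstream of the TSS were themselves more frequent, at 47.9% of member gene TSSs and 15.0% of all. Given one in the window, the start codon was part of a match at 13 of 34 member gene TSSs (38.2%), against 22.2% of all. Without matches at a start codon, 9.86% of member gene TSSs and 5.42% of all held YY1 letters.

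The start-codon matches of the 3 members with the highest FPKM among those with such a match downstream of the TSS are printed, 30 bases each on the strand of the gene with the match in capitals. MRPS18B is on the plus strand at chr6:30585631-30585660, MRPL9 on the minus strand at chr1:151735938-151735967 and MRPS35 on the plus strand at chr12:27863765-27863794.
MRPS18B: gcgtacgtcaagATGGCGGcgtctgtatta
MRPL9: gtgcctgtgaacATGGCGGcgcccgttgtc
MRPS35: gtcctcgcagccATGGCGGccgccgcgctc
In MRPS35 the match begins at the called TSS itself, while in MRPL9 it begins at position 18 and in MRPS18B at position 27. In each, the capitals open with the ATG.

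ETS or YY1 letters or both were present at 42 of the 71 (59.2%), against 24.2% of all gene TSSs, and both at 6 (8.45%, against 2.06%). Of the 15 member gene TSSs with a divergent gene TSS, 6 (40.0%) held an ETS core, against 35.7% of the other members and 24.0% of all gene TSSs with a divergent gene TSS. The median FPKM was 75.2 with ETS letters and 59.6 without, and 73.8 with YY1 letters and 67.3 without, with quartile ranges that overlapped in both cases.

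Other letters differed less or in the other direction. The GC box was at 53.5% of member gene TSSs and 64.1% of all, CCAAT at 19.7% and 27.5%, and the E-box CACGTG, bound by MYC and USF, at 2.82% and 7.17%. In the cytosolic set they were at 50.6%, 29.9% and 2.60%, so that the GC box and the E-box were low in both families. GCGCATGC, the letters of NRF1, were at 5 member gene TSSs (7.04%, against 4.37%). The CRE core TGACGT was at 11.3% and 8.78%, the ZNF143 core ACTACAA at 4.23% and 2.41%, and the TATA core TATAA at 7.04% and 5.24%. None of the members held TATAA in the 100 nt upstream of the TSS, where 3.77% of all gene TSSs did. A match to such short letters is a description of the sequence and shows no binding, and matches of different motifs can overlap.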

How the data were processed

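FPKM values, deposited as 1 value per gene, were made by the authors from 3 stranded RNA-seq replicates by filtering reads, trimming, alignment to hg19 with TopHat2 2.0.4, removal of duplicates with Picard 1.118, merging of replicates and Cufflinks 2.2.1. The TSS lists were deposited as single positions in hg19. The authors trimmed Start-seq reads with cutadapt 1.2.1, aligned them with Bowtie 0.12.8 and called TSSs from replicate 1. The deposited score of every call is 0, so no read counts are given. The second Start-seq library and the libraries of nucleosome positions (MNase-seq) and open chromatin (FAIRE-seq) were not analysed here.

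Each gene TSS was joined to the gene with the nearest GENCODE protein-coding transcript start (release lifted to GRCh37) on its strand within 1000 nt, and antisense calls by the shared identifier. Older gene symbols were matched through RefSeq synonyms. Sequence came from GRCh37. Shares have Clopper-Pearson intervals at 95%, which cover counting only. Python 3.11.15, numpy 2.4.6, scipy 1.17.1 and matplotlib 3.10.9 were used. The join, the divergent pairs and the motif search were tested on simulated data.

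Members, lists and motifs were chosen with earlier results of these data known. Named by rule were the 10 highest and 10 lowest members by FPKM, members without a gene TSS, with more than 1, with a daTSS or with a divergent gene TSS, the MRPS18 paralogs, and the highest and lowest 2 of each other list. Other members and genes, the motif positions, the start-codon matches and the pyrimidine-start sequences were chosen after their values were seen. The sequence of 1 of the 3 closest divergent pairs is not reported here.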

Additional observations from a re-analysis of the deposited data

How the results depend on the processing

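No paired analysis was possible because the results come from no test and from 1 set of calls and 1 merged value per gene, and no replicate could be left out for the same reason. A value was taken as moved when it left the 95% interval of its count or median. Of 45 alternatives, 37 did not move, and 7 of the 8 that did were motif windows or motif restrictions. The other was the share of member gene TSSs with a uaTSS, which was 64.4% (58.5% of all gene TSSs) once gene TSSs with another gene TSS within 5000 nt were left out. Some of the 37 could not have moved. A limit to an FPKM of at least 1 left out no member, since the lowest was at 11.1, so it says nothing about robustness. The share with a divergent gene TSS was 16.9% within 500 nt and 23.9% within 2000 nt, against 9.38% and 12.7% of all gene TSSs. YY1 letters fell to 5.63% of member gene TSSs, against 2.75% of all, when only the 100 nt upstream of the TSS were searched. Alternatives for YY1 without start codons, for YY1 on the strand of the gene, for the narrower ETS window and for gene models with a symbol were added after seeing the data. The unknown depth of the calls limits every count of absent calls.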
